A study of Mus musculus with 9 samples.

Results

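Transcripts of 9 genes that encode enzymes of the tricarboxylic acid cycle were followed in mouse muscle and in cultured muscle cells: Cs, Idh3a, Idh3b, Idh3g, Ogdh, Suclg1, Sucla2, Fh1 and Mdh2. The genes were chosen by name and matched to the Ensembl identifiers of the count tables, in which all 9 were found, among 46078 genes listed for the cultured cells and 38293 for the muscle. The choice used no measured value, although earlier results of these data were known when it was made. The cycle runs in the mitochondrial matrix, where it oxidises the acetyl group of acetyl-CoA to carbon dioxide and hands the electrons to the respiratory chain as reduced cofactors. Lactate reaches it after oxidation to pyruvate. Skeletal muscle fibers rely on the cycle for sustained work, and citrate synthase activity is a common measure of their mitochondrial content.

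The groups were GAS (gastrocnemius muscle, 3 replicates), MB (primary myoblasts, the dividing precursors of muscle fibers, 2 replicates), MT (myotubes, 2 replicates) and lactate-treated MB (2 replicates), all of strain C57BL/6. GAS came from female mice of 8 to 12 weeks. MT were MB kept for 3 days in differentiation medium, a low-serum medium in which myoblasts fuse. Lactate-treated MB received 10 mM sodium-L-lactate in PBS, and the MB and MT controls an equal amount of PBS. The length of the lactate treatment is not given in the sources used here beyond an incubation overnight. The labels call the replicates biological and do not tie them to animals or cultures, so the tests measure the spread between these samples. GAS libraries were prepared from mRNA enriched for poly(A). MB and MT libraries were made by another protocol, Smart-seq2, which took 5 ng of total RNA as input and amplified whole cDNA by PCR. GAS was therefore normalized on its own and not tested against the cultured cells.

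The GAS libraries held 19307793 to 19941574 counts on genes, and those of MB, MT and lactate-treated MB held 5198247 to 10839516. The lowest count of any member was 372, for Sucla2 in MB replicate 1, with a Poisson interval of 335 to 412 that covers counting error only. MT replicate 1 stood apart, with counts on 28599 genes against 15548 to 17965 in the other cultured libraries. The summed markers of muscle cells separated MB from MT. Muscle fiber markers (Acta1, Ckm, Myh4, Tnnt3, Mb) summed to between 36.7 and 77.7 CPM (counts scaled to the same library size) in MB, 8484 to 8653 CPM in MT and 127945 to 143524 CPM in GAS, and Myh4 was at 0 in all MB libraries. Myoblast markers (Pax7, Myf5, Myod1, Cdh15) summed to 884 to 1652 CPM in MB and 261 to 724 CPM in MT. Of these, Cdh15 overlapped, at 164 to 327 CPM in MB and 92.0 to 350 CPM in MT. Myotube markers (Myog, Myh3, Mymk, Ckm, Actn2) summed to 58.5 to 151 CPM in MB and 3508 to 7434 CPM in MT. GAS also held markers of other cells, among them erythroid (865 to 4538 CPM), fibroblast (445 to 529 CPM), endothelial (130 to 152 CPM) and adipocyte (27.7 to 51.0 CPM). In culture, the fibroblast markers Pdgfra, Col3a1, Dcn and Dpt moved with the MT group, as given below.

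In GAS, the 9 genes were among the abundant transcripts of the tissue. Levels were compared per length, as RPKM, which is CPM divided by the exonic length of the gene in kb. Among the 9874 genes with a mean RPKM over 1, each member stood above at least 93.0% of the genes. Mdh2, the mitochondrial malate dehydrogenase that regenerates oxaloacetate, had the highest level of the members, with RPKM values of 154, 168 and 142 in the 3 replicates (mean 155 ± 12.9, SD, n = 3). Suclg1, the alpha subunit shared by both forms of succinyl-CoA ligase, had the lowest, with 47.6, 50.1 and 47.8 (mean 48.5 ± 1.37, SD, n = 3). In bulk samples, fewer cells of a type and less RNA per cell cannot be told apart, and this holds for each difference below.

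The middle of the order in GAS was held by 5 members at similar levels. Cs, the citrate synthase that joins acetyl-CoA to oxaloacetate, had a mean RPKM of 121 ± 7.35. Idh3b, a regulatory subunit of the NAD-dependent isocitrate dehydrogenase, was at 119.5 ± 4.48, and the catalytic subunit Idh3a of the same enzyme at 112 ± 2.80. Ogdh, the decarboxylase component of the alpha-ketoglutarate dehydrogenase complex, was at 115 ± 6.01, and Sucla2, the ATP-forming beta subunit of succinyl-CoA ligase, at 113 ± 2.84 (SD, n = 3 throughout). The replicates of neighbours among these genes overlapped, so their order was not resolved. Below them, and without overlap, followed Idh3g, the other regulatory subunit of isocitrate dehydrogenase, at 84.6 ± 3.89, and Fh1, the fumarate hydratase, at 55.6 ± 3.01 (SD, n = 3). Mdh2 lay above Cs and Fh1 above Suclg1 without overlap. With the length of the longest coding transcript in place of the whole exonic length, Mdh2 kept the highest place, Idh3b and Cs changed places, Ogdh moved from position 4 to 7 and Fh1 came last behind Suclg1. The order below Mdh2 thus depended on the length used.

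**Figure D1:**
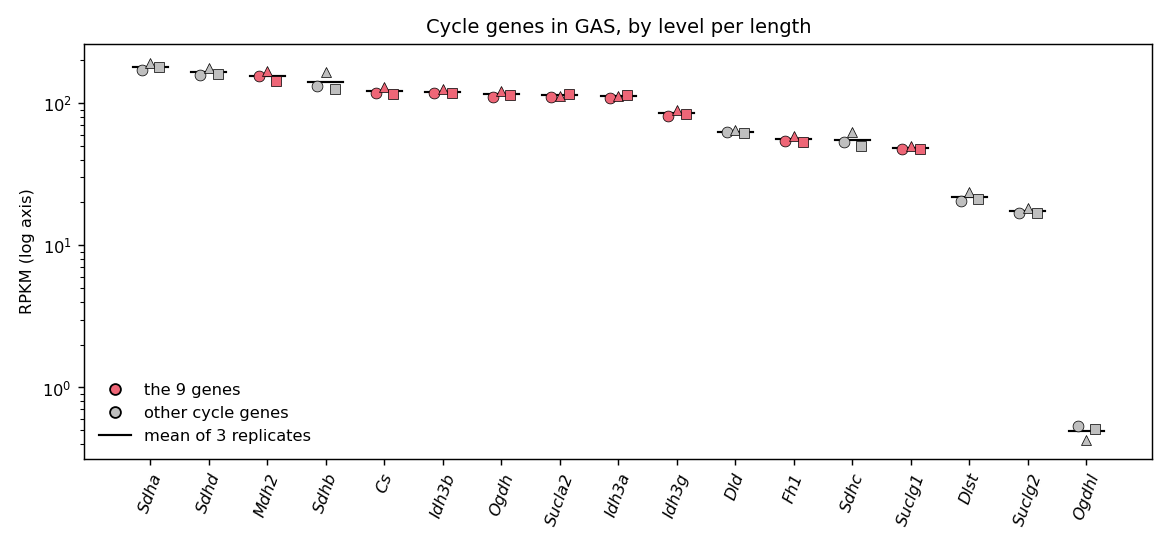
RPKM (log axis) of the 9 genes and of other cycle genes in the 3 GAS replicates (circle, triangle and square), ordered by their mean (line). The 9 genes in red lie between Mdh2 at 155 and Suclg1 at 48.5. Above them are Sdha at 180 and Sdhd at 164, and below them Dlst at 21.7, Suclg2 at 17.3 and Ogdhl at 0.49.

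Other genes of the cycle lay above and below these levels in RPKM. The succinate dehydrogenase subunits, which lie between succinyl-CoA ligase and fumarate hydratase, were at 180 for Sdha, 141 for Sdhb, 55.3 for Sdhc and 164 for Sdhd. Of the partners of Ogdh, Dld was at 62.5 and Dlst at 21.7, and Ogdhl, a relative of Ogdh known from brain, was at 0.49. Suclg2, the GTP-forming beta subunit that replaces Sucla2 in the other form of succinyl-CoA ligase, was at 17.3 ± 0.72 (SD, n = 3). In RPKM, GAS thus held between 6.17 and 6.85 times as much Sucla2 as Suclg2 in each replicate. With the length of the longest coding transcript the ratio was 8.04 to 8.92.

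The members varied little among the GAS replicates. Their coefficient of variation in CPM lay between 2.51% for Idh3a and 8.34% for Mdh2. Their counts ranged from 3491 to 14730 per library. Together they took 0.380%, 0.421% and 0.383% of all counts in the 3 replicates.

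The comparison of MT with MB asks which transcripts change as dividing precursors become contractile cells. A gene was called where the adjusted p of edgeR's quasi-likelihood test was under 0.05 and log2FC, the log2 of the MT level over the MB level, over 0.5 or under -0.5. None of the 9 members was called. Of all 12921 genes tested, 11% were called higher and 6.86% lower, 17.9% in all. Before adjustment, edgeR gave 2 members, Cs and Sucla2, a p under 0.05, as it did 32.5% of all genes. The DESeq2 Wald test called 1 member, Cs, and so did edgeR's likelihood ratio test. The log2FC was negative for 7 of 9 members, as for 47.7% of all genes, and the median over the members was -0.30 against 0.07 over all genes. For Idh3a, Idh3b, Ogdh and Suclg1 it was smaller in size than its SE, so the direction was not resolved. Sucla2 and Idh3g had a positive log2FC. The MT and MB libraries did not overlap for Sucla2, higher in MT (33.1% of all genes), and for Cs, Idh3a, Fh1 and Mdh2, lower in MT (29.2% of all genes). The 9 genes together took 0.270% and 0.259% of the counts in the MT replicates and 0.339% and 0.314% in the MB replicates.

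**Figure D2:**
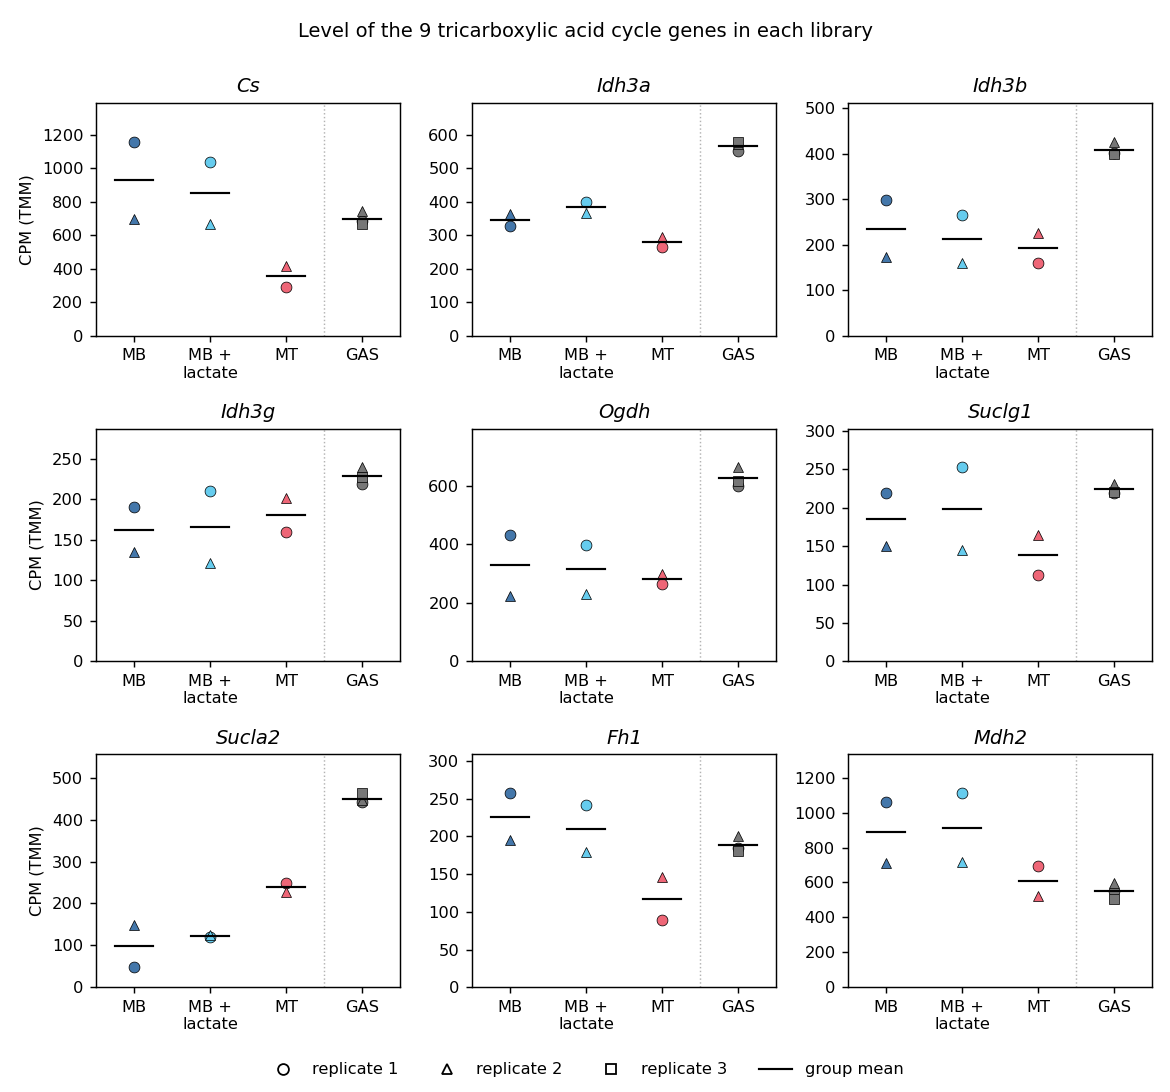
CPM (axes from 0) of each member in every library of MB, lactate-treated MB, MT and GAS, with the symbol giving the replicate and the line the group mean; GAS, right of the dotted line, was normalized apart. In Cs the MT libraries lie at 291 and 415, under both MB libraries, in Sucla2 at 250.0 and 228, over both, and in Ogdh and Idh3g between the MB libraries or overlapping them.

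Cs (chr10:128337734-128362479, plus strand, mm10) showed the lowest log2FC of the members. It was at 291 and 415 CPM in MT and at 1159 and 697 CPM in MB, so that both MT libraries lay below both MB libraries. Cs was 2.62-fold lower in MT (log2FC -1.39, SE 0.53, 95% interval -2.57 to -0.21, edgeR adjusted p = 0.0979), which did not pass the threshold. Other tests on the same counts put it past: DESeq2 gave an adjusted p of 0.0246 and edgeR's likelihood ratio test an adjusted p of 0.0342. Where a replicate was left out, here and below, the spread came from the group with 2 libraries, and the lone library was assumed to vary like it. That spread was pooled over all genes and was not the gene's own, so no p is given for such fits. The log2FC of Cs was -1.16 without MT replicate 1, -1.82 without MT replicate 2 and -1.10 without MB replicate 1. Cs has a close copy, Csl, with 90.4% identity over 1617 bases, which held at most 24 counts in any library, or 0.481% of those on Cs.

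None of the 3 subunits of the NAD-dependent isocitrate dehydrogenase was called, and differences between them were not tested. Idh3a (chr9:54586334-54604661, plus strand), the catalytic subunit, was at 264 and 295 CPM in MT against 327 and 362 CPM in MB. These groups did not overlap, yet the difference was small (log2FC -0.30, SE 0.45, edgeR adjusted p = 0.688). Idh3b (chr2:130279309-130284547, minus strand) was at 159 and 227 CPM in MT and at 298 and 173 CPM in MB. Idh3g (chrX:73778963-73786897, minus strand) was at 159 and 202 CPM in MT and at 190 and 135 CPM in MB. For both regulatory subunits the groups overlapped, with log2FC of -0.28 (SE 0.47) for Idh3b and 0.16 (SE 0.44) for Idh3g. Their 95% intervals, -1.32 to 0.76 and -0.81 to 1.12, leave room for a change of either sign. Idh3b shares 5 exonic bases with Nop56 on the opposite strand, 0.146% of its length.

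Ogdh (chr11:6291633-6356642, plus strand), which commits alpha-ketoglutarate to the cycle, was at 265 and 297 CPM in MT. The MB replicates lay on either side of these values, at 433 and 225 CPM. The difference was -0.22 on the log2 scale (SE 0.49, edgeR adjusted p = 0.794). Its partners spread in the same MB libraries: Dlst was at 477 and 207 CPM and Dld at 50.8 and 174 CPM. In MT, Dlst was at 73.6 and 206 CPM and Dld at 149 and 174 CPM, and neither was called. The log2FC of Dlst was -1.29 (SE 0.60), while that of Dld was 0.52 (SE 0.56). Ogdhl stayed at or under 1.71 CPM in all cultured libraries and was too low to be tested.

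Succinyl-CoA ligase, the step that makes ATP or GTP directly, held the gene with the highest log2FC of the members and the called gene of the cycle. Sucla2 (chr14:73525319-73596142, plus strand) was at 250.0 and 228 CPM in MT and at 48.9 and 149 CPM in MB. Both MT libraries lay above both MB libraries, and the MB libraries differed from each other by 1.59 on the log2 scale. Sucla2 was 2.42-fold higher in MT (log2FC 1.28, SE 0.55, 95% interval 0.06 to 2.49, edgeR adjusted p = 0.135) and did not pass the threshold. The value hung on which MB library was kept: log2FC was 0.56 without MB replicate 1 and 2.22 without MB replicate 2. Suclg1 (chr6:73248382-73276911, plus strand), the common alpha subunit, was at 112 and 164 CPM in MT and at 219 and 151 CPM in MB, with overlapping groups (log2FC -0.42, SE 0.45).

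Suclg2, the alternative beta subunit, fell in MT. It was at 15.1 and 25.3 CPM in MT and at 83.4 and 73.6 CPM in MB, 3.89-fold lower (log2FC -1.96, SE 0.47, edgeR adjusted p = 0.0171). Without MT replicate 1, log2FC of Suclg2 was -1.63. In RPKM, the ratio of Sucla2 to Suclg2 within a library was 19.2 and 10.5 in MT, 0.68 and 2.35 in MB, and 1.59 and 1.93 in lactate-treated MB. MT thus lay above MB without overlap. GAS, which came from another protocol and was not tested against the cultured cells, was at 6.17 to 6.85. With the length of the longest coding transcript the ratio was 25.0 and 13.6 in MT and 0.88 and 3.06 in MB. On the log2 scale the mean ratio differed by 3.49 between MT and MB, an 11.2-fold difference, for which the exact permutation test (two-sided) gave p = 0.333, the smallest that 2 libraries against 2 allow.

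Fh1 (chr1:175600374-175625635, minus strand), which hydrates fumarate to malate, was at 88.7 and 146 CPM in MT and at 257 and 195 CPM in MB. Both MT libraries were lower, by 1.93-fold on average (log2FC -0.95, SE 0.45, 95% interval -1.95 to 0.06, edgeR adjusted p = 0.177). Mdh2 (chr5:135778480-135790398, plus strand) was at 694 and 524 CPM in MT and at 1063 and 712 CPM in MB. The groups were separated by less than the spread within either of them, and the difference did not pass (log2FC -0.53, SE 0.53, edgeR adjusted p = 0.519). In the cultured cells as in GAS, Mdh2 had the highest RPKM of the members, 249 ± 69.7 in MB and 171 ± 33.8 in MT (SD, n = 2), although it overlapped with Cs in MB. The places of Cs and Sucla2 were less fixed: Cs came behind Mdh2 at 161 ± 56.6 in MB and Sucla2 last at 24.8 ± 17.8, whereas in MT they were at 61.1 ± 15.1 and 59.97 ± 3.85. With the length of the longest coding transcript, Cs was in position 3 and Sucla2 in position 6 of the members in MT.

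**Figure D3:**
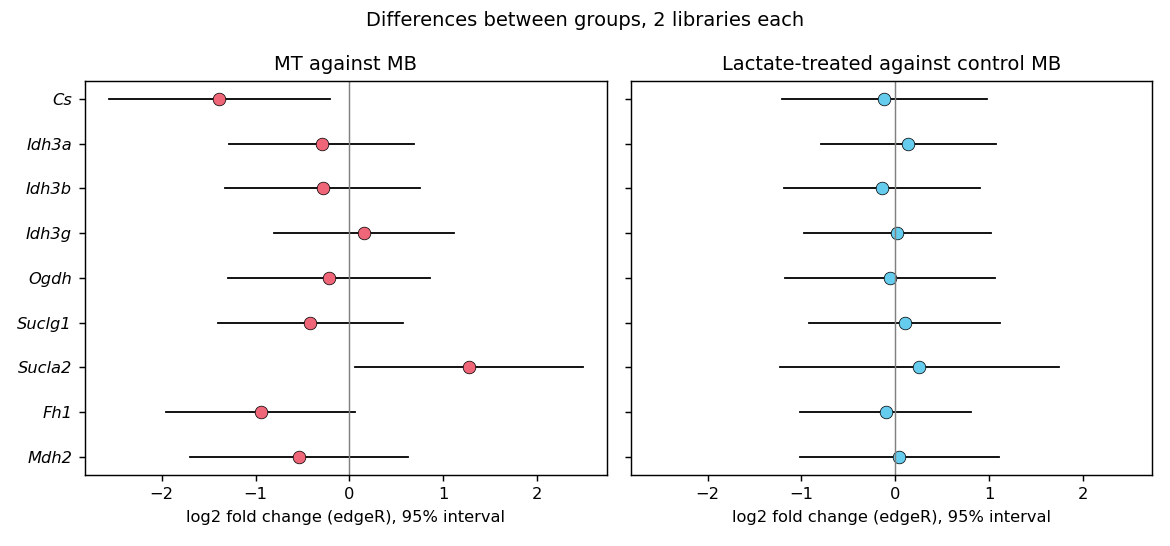
log2FC of each member from edgeR (points) with its 95% interval (lines), for MT against MB at left and lactate-treated against control MB at right, with 2 libraries per group. At left Cs (-1.39) and Sucla2 (1.28) have intervals that exclude 0 before adjustment, and at right all 9 intervals include 0.

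Of the 8 other cycle genes tested, Suclg2 was the 1 called, where 17.9% of all genes were called. The median log2FC of the list was -0.23. The 4 succinate dehydrogenase genes Sdha, Sdhb, Sdhc and Sdhd, which encode the enzyme between succinyl-CoA ligase and fumarate hydratase, were not called.

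Among 15 enzymes and carriers next to the cycle, 2 were called higher (11% of all genes) and 1 was called lower (6.86% of all genes). Their median log2FC was -0.20. Idh1, the cytosolic NADP-dependent isocitrate dehydrogenase, rose from 49.9 and 57.0 CPM in MB to 170 and 151 CPM in MT (log2FC 1.59, edgeR adjusted p = 0.0257). Me3, a mitochondrial malic enzyme, rose from 3.68 and 1.26 CPM to 16.2 and 12.4 CPM (log2FC 2.55, edgeR adjusted p = 0.0339). Slc25a10, the mitochondrial dicarboxylate carrier, fell from 206 and 113 CPM to 20.3 and 48.9 CPM (log2FC -2.21, edgeR adjusted p = 0.0185). Whether these calls hold without a replicate was not judged, since such fits pooled the spread over all genes. For a pair of counterparts of members the groups did not overlap but the test did not pass. Of all genes, 33.1% were higher and 29.2% lower in MT without overlap. Mdh1, the cytosolic malate dehydrogenase, was at 394 and 493 CPM in MT and 209 and 192 CPM in MB (log2FC 1.15, edgeR adjusted p = 0.108). Idh2, the mitochondrial NADP-dependent enzyme, was at 153 and 199 CPM in MT and 605 and 338 CPM in MB (log2FC -1.42, edgeR adjusted p = 0.0724). DESeq2 called Idh2 (adjusted p = 0.0230). In RPKM, the ratio of Mdh2 to Mdh1 was 1.27 and 0.76 in MT, 3.67 and 2.68 in MB and between 0.88 and 1.01 in GAS.

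**Figure D4:**
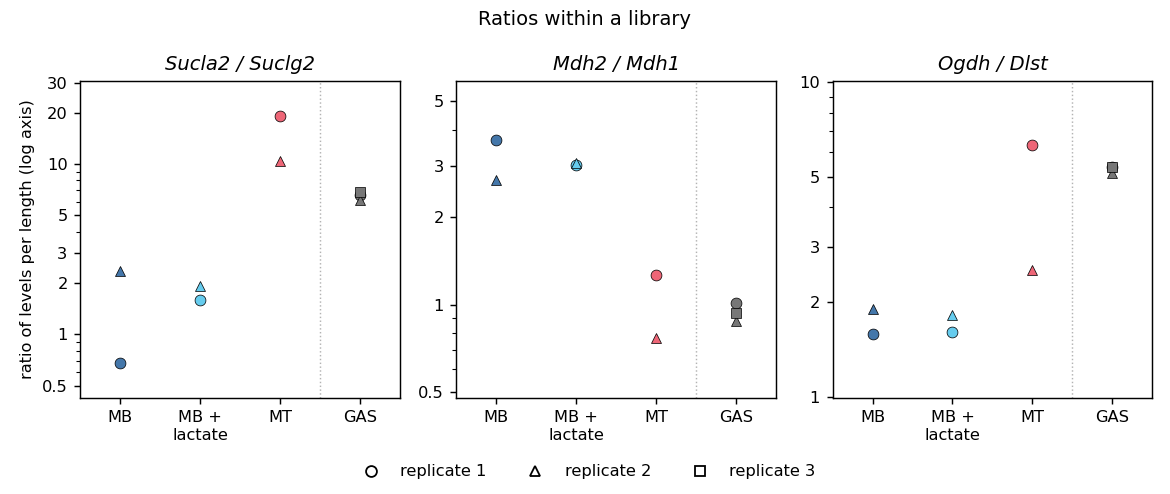
Ratios of levels per length within each library (log axes) for Sucla2 to Suclg2, Mdh2 to Mdh1 and Ogdh to Dlst, with the symbol giving the replicate; GAS, right of the dotted line, comes from another library protocol. In all 3 ratios the MT libraries do not overlap with the MB and lactate-treated MB libraries, and for Ogdh to Dlst the MT replicates lie apart at 6.31 and 2.53.

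The fibroblast marker list moved with the MT group. Its 4 markers summed to 11426 to 12361 CPM in MT and 222 to 506 CPM in MB. Nearly all of this was Col3a1, at 11621 CPM on average in MT, while Dcn was at 267 CPM against 0.11 CPM in MB, Pdgfra at 4.19 CPM and Dpt at 2.09 CPM in MT. In the cultured libraries the summed endothelial markers reached at most 18.3 CPM and those of macrophages and leukocytes 17.5 CPM, both in MT replicate 1, against 0.25 and 2.82 CPM in MT replicate 2. The part of these cells in the differences of the members was not tested.

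The distance between the MB replicates varied with the GC content of the member, taken from its longest coding transcript. Sucla2 had the lowest GC content, 43.2%, and was lower in MB replicate 1 than in replicate 2 by 1.59 (log2). Idh3a, next at 46.9%, was lower by 0.15, whereas the other 7 members, at 47.7% to 55.4%, were higher in replicate 1, by 0.40 to 0.94. Over the 9 members, Pearson's correlation of GC content with this difference was 0.83, and over 12886 genes it was 0.68. In the lactate-treated libraries the correlation was 0.85 over the members and 0.50 over all genes, but Sucla2 differed by only -0.08 there and Idh3a by 0.12. In the MT libraries it was 0.10 and -0.14. These are descriptions across genes of the same 2 libraries, and genes are not independent replicates. Ribosomal RNA genes and Gm26917 also took more of the counts in replicate 1, at 11.96% against 2.15% in MB and 17.5% against 1.97% in lactate-treated MB. With each library's trend on GC content removed, an alternative chosen after seeing the data, log2FC of MT against MB was -1.33 for Cs (edgeR adjusted p = 0.0430) and 1.08 for Sucla2 (edgeR adjusted p = 0.0525).

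**Figure D5:**
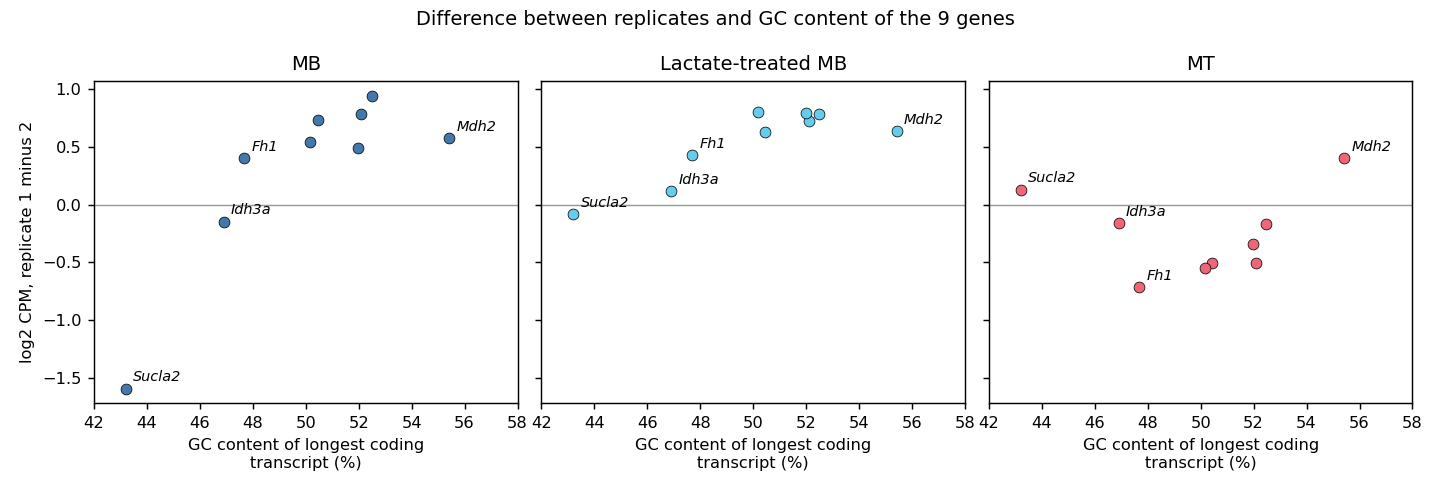
Difference between replicates 1 and 2 (log2 CPM) against the GC content of the longest coding transcript (percent) for the 9 members, in MB, lactate-treated MB and MT. Sucla2, at 43.2% GC, is the lowest point in MB at -1.59, and the members above 50% GC lie between 0.49 and 0.94 there, whereas MT shows no such slope.

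Lactate treatment asks whether a fuel of the cycle changes the transcripts of its enzymes. No member was called in lactate-treated against control MB, and neither was any of the 11804 genes tested (0% higher, 0% lower), by edgeR or by DESeq2. No member had an edgeR p under 0.05 before adjustment, as against 0.0424% of all genes. None reached a looser nominal threshold (p under 0.01 before adjustment and log2FC beyond 0.5 in either direction), which 0% of all genes reached. Without any difference, a fraction of 0.05 of all genes would have a p under 0.05, so the test was conservative here. Same-numbered libraries deviated together (correlation 0.71), and this shared spread entered the test, which had no replicate block. The lack of a small p among the members therefore says little about them. The log2FC of the members lay between -0.14 for Idh3b and 0.26 for Sucla2, with a median of 0.02 against -0.003 over all genes tested. The treated and control libraries overlapped for 8 of 9 members. The exception was Idh3a, at 398 and 367 CPM with lactate and 327 and 362 CPM without (log2FC 0.14, SE 0.38); 3.46% of all genes were higher without overlap and 7.55% lower.

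The entry enzyme Cs was at 1036 and 669 CPM with lactate, beside 1159 and 697 CPM in control MB (log2FC -0.12, SE 0.45). Mdh2, which closes the cycle, was at 1111 and 715 CPM with lactate and at 1063 and 712 CPM without (log2FC 0.04, SE 0.44). In both genes the 2 libraries of a group were farther apart than the groups were, with replicate 1 the higher in each group. Between libraries of the same number, lactate over control (log2) was -0.16 and -0.06 for Cs and 0.06 and 0.005 for Mdh2. The labels do not tie equal numbers. Sucla2 was at 119 and 126 CPM with lactate, between the control values of 48.9 and 149 CPM (log2FC 0.26, SE 0.61). Its 2 lactate-treated libraries were close together and the controls far apart, and the 95% interval of the difference ran from -1.23 to 1.75. Without MB replicate 1 the log2FC of Sucla2 was -0.30, and without MB replicate 2 it was 1.42.

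The groups also overlapped for the remaining members. With lactate, Idh3b was at 265 and 160 CPM, Idh3g at 211 and 121 CPM and Ogdh at 399 and 231 CPM. Suclg1 was at 253 and 145 CPM and Fh1 at 242 and 179 CPM. In each of these 5 genes replicate 1 was the higher of the group, as in control MB. Over the 9 members, the 95% intervals of log2FC had lower bounds between -1.23 and -0.79 and upper bounds between 0.81 and 1.75. Differences within these intervals were not resolved by 2 libraries a group, and the data do not show that the members were unaffected. None of the 8 other cycle genes tested and none of the 15 enzymes and carriers was called, with median log2FC of 0.05 and 0.01.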

How the data were processed

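RNA sequencing counts of 9 libraries were used. Per the labels and methods, the authors trimmed reads with Trim Galore 0.6.6, aligned them to mm10 with HISAT2 2.2.1 and counted them on genes with featureCounts (Subread 2.0.1), and the deposited values are raw counts. The annotation release and strand setting are not given in the sources used here. Symbols, coordinates and exonic lengths came from GENCODE M21.

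CPM used TMM factors, computed for GAS and for cultured cells separately. MT against MB and lactate-treated against control MB were each fitted on the 4 libraries compared, without a replicate block, with edgeR 4.0.16 (filterByExpr, quasi-likelihood test, Benjamini-Hochberg over all genes tested) in R 4.3.3. Both fits were tested on simulated counts in which 200 genes were changed by 1, 2 or 4 (log2). At a change of 1, 0% of them were called in either comparison. At a change of 2, 11% were called for MT against MB and 4% for lactate-treated against control MB. At a change of 4, 94.5% and 91% were called. Levels were computed in Python 3.11.15 with pandas 2.3.3 and plots drawn with matplotlib 3.10.9. The floor of 3 counts equals up to 0.155 CPM in GAS and 0.577 CPM in culture.

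The members and lists were chosen with earlier results of these data known. Named besides the members are called genes of 2 lists (the rest of the cycle, enzymes and carriers next to it), partner subunits, missing steps and counterparts of members, and 1 gene that meets this rule is counted with its list but not reported here. Alternatives were RLE size factors, DESeq2 1.42.0, edgeR's likelihood ratio test, other filters, a replicate block, a joint fit of the 6 cultured libraries, no ribosomal RNA genes, and leaving out each replicate. Crossed replicate numbers, removal of the GC trend, the block with RLE or GC removal and another gene length were chosen after seeing the data.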

Additional observations from a re-analysis of the deposited data

How the results depend on the processing

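Over the alternatives, log2FC of MT against MB kept its sign for Cs (-1.82 to -1.10), Sucla2 (0.56 to 2.22), Fh1, Idh3a, Suclg1 and Mdh2. When each replicate was left out, the members called lay between 0 and 1 higher and between 0 and 1 lower, the other cycle genes called between 0 and 3 and the enzymes and carriers called between 0 and 5. One member was called lower, Cs, with DESeq2 (1), the likelihood ratio test (1), crossed numbers (1) and removal of the GC trend (1). With crossed numbers 2 other cycle genes were called, and with GC removal 6 enzymes and carriers, also with the replicate block (6). Leaving out replicates gave ranges through 0 for Idh3b (-0.71 to 0.042), Idh3g (-0.18 to 0.31) and Ogdh (-0.69 to 0.20). The filter of at least 10 counts in every library moved the median of all genes by 0.11 and the members by 0.10 to 0.12. In the lactate comparison no alternative that kept every library called a member. Its small log2FC changed sign when replicates were left out for Cs (-0.36 to 0.28), Idh3b (-0.45 to 0.29), Idh3g (-0.32 to 0.31), Ogdh (-0.39 to 0.48), Suclg1 (-0.25 to 0.39), Sucla2 (-0.30 to 1.42), Fh1 (-0.24 to 0.10) and Mdh2 (-0.21 to 0.35). Ogdh also turned to 0.013 with RLE size factors, 0.013 with DESeq2, 0.047 with GC removal, and with the replicate block to 0.016 (RLE) and 0.044 (GC removal).

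The replicate number was not taken as a pairing, since with 2 pairs nothing in the labels ties equal numbers. Deviations of same-numbered libraries correlated at -0.13 for MT and MB and 0.71 for lactate-treated and control MB. The replicate block gave 1447 genes higher and 824 lower in MT. No member was called with it in either comparison, and log2FC of Idh3g with lactate turned to -0.0020. For MT against MB, however, the block with TMM or RLE size factors pooled the spread over all genes. The same pooling occurred for MT against MB when low-count genes were kept. Calls from these MT fits do not rest on each gene's own spread, so the absence of a member among them decides nothing. With crossed numbers 1192 genes were higher and 867 lower. The summed RPKM of the members in GAS was 924, between 903 and 935 without a replicate, 1835 with the longest coding transcript and 2251 as TPM, which scales the sum over all genes. The lowest member count, 372 for Sucla2 in MB replicate 1, had a Poisson 95% interval of ±10.3%, and the coefficient of variation of Sucla2 over the MB replicates was 71.7%. Fits without a replicate took the spread from the group of 2 libraries alone and pooled it over all genes.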
